A study of Mus musculus with 4 samples.

Results

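Glutamate is cleared from the synapse by membrane carriers, turned into glutamine in glia, passed back to neurons and loaded into vesicles, and 8 genes that carry out these steps were followed here across the cell types of the mouse cerebral cortex. They were selected by gene symbol from the 32285 genes in the count tables, and all 8 were found: the uptake carriers Slc1a2 and Slc1a3, the enzyme Glul, the glutamine carriers Slc38a1 and Slc38a2, and the vesicular transporters Slc17a7, Slc17a6 and Slc17a8. Single-nucleus RNA-seq counts, as unique molecular identifiers (UMIs), came from the cortex of untreated Gclc-KO mice at 3 months (2 mice, libraries 3M-1 and 3M-2) and 6 months (2 mice, libraries 6M-1 and 6M-2), and no wild-type library was part of the comparison. In this model a floxed GCLC allele, the catalytic subunit of the enzyme that starts glutathione synthesis, is deleted by CaMKII-Cre, which acts in neurons. The cortex pieces were dissected from regions rich in rod-shaped microglia, and DAPI-positive single nuclei were sorted from them.

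Slc1a2 encodes the glutamate transporter known as GLT-1 or EAAT2 and Slc1a3 encodes GLAST or EAAT1, both best known from astrocytes, where they remove glutamate from the extracellular space. Glul encodes glutamine synthetase, which converts the captured glutamate into glutamine, and the carriers encoded by Slc38a1 and Slc38a2 move glutamine and other neutral amino acids into cells. Slc17a7, Slc17a6 and Slc17a8 encode VGLUT1, VGLUT2 and VGLUT3, which load glutamate into synaptic vesicles and mark different sets of neurons.

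In GRCm38 the gene of Slc1a2 spans chr2:102658659-102790784 on the plus strand, Slc1a3 chr15:8634124-8710764 on the minus strand, Glul chr1:153899944-153909723 on the plus strand, Slc17a7 chr7:45163949-45176142 and Slc17a6 chr7:51622006-51671119 on the plus strand, and Slc17a8 chr10:89574020-89621253 on the minus strand. Slc38a1 (chr15:96571418-96642913) and Slc38a2 (chr15:96687392-96699730) are neighbours on the minus strand. Slc1a2 is overlapped on the opposite strand by Gm13872 and Glul by Teddm2, and whether the counting used strand is not given in the sources used here, so reads of such pairs may not be separated. On the same strand Slc1a3 is overlapped by Gm37310, Glul by Mir8114, Slc17a7 by Mir7055 and Slc17a6 by Gm45072. Strand cannot separate these pairs. The 250 bases before the start of 3 members follow, because the results below turn on them: the astrocyte-led carriers Slc1a2 and Slc1a3, and the excitatory Slc17a7. They are RefSeq sequences (GRCm38.p6), written 5′ to 3′ along the gene's own strand, and capitals mark each CG pair.
Slc1a2, chr2:102706188-102706437, plus strand: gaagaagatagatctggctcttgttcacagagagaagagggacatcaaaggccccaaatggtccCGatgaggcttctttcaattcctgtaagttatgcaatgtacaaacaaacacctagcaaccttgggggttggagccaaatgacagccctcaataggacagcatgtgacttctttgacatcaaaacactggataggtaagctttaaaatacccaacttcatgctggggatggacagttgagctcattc
Slc1a3, chr15:8710808-8711057, minus strand: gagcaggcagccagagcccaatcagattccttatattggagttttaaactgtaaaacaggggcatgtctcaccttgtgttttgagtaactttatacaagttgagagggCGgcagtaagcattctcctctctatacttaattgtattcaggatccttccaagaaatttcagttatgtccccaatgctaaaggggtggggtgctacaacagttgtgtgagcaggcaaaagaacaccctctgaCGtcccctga
Slc17a7, chr7:45163671-45163920, plus strand: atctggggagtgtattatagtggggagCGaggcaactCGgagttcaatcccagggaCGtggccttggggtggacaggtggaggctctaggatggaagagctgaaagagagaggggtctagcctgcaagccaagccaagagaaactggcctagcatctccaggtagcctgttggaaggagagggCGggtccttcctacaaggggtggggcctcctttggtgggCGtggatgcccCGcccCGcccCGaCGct
The motif CG occurred 1 time before Slc1a2, 2 times before Slc1a3 and 9 times before Slc17a7, against a median of 6 over the 27025 mouse promoters in the table. At least as many pairs were held by 91.7% of promoters for Slc1a2, 80.6% for Slc1a3 and 40.7% for Slc17a7. The RefSeq start used for Slc1a2 lies 47779 bases inside the longer annotated gene, so its stretch is that of an internal start. CG counts of the others ran from 5 before Slc17a8 and 7 before Slc17a6 to 15 before Glul and 30 before Slc38a2, at the first listed start of each gene, and 7 of the 8 members had an entry.

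Nuclei were sorted into classes by marker genes that included none of the 8 members, and the classes are excitatory-, inhibitory-, astrocyte-, oligodendrocyte-, OPC- (oligodendrocyte precursor), microglia- and mural-like, written below without the suffix. Of 30515 nuclei kept, 13754 were excitatory, 3849 inhibitory, 4427 oligodendrocyte, 2172 microglia, 918 OPC, 216 astrocyte and 78 mural, and the libraries held between 6802 and 8750 nuclei and between 59262228 and 65894316 UMIs. The 10 astrocyte genes used for sorting summed to 8688 to 14492 CPM (UMIs of a gene or list, scaled to the same total of UMIs in every sum) in astrocytes, 2801 to 3405 CPM in OPC and 174 to 588 CPM in mural nuclei. These genes made the classes, so this is a description and not a check. In mural nuclei 7 to 8 of the 10 were at 0, among them Aqp4, the water channel that defines astrocytes, in all 4 libraries, whereas the connexin gene Gja1 was at 58.0 to 245 CPM. These nuclei held 264 to 637 CPM of Kcnj8 and Anpep, mural genes held out of the sorting. The genes that sorted them included Bnc2, Col1a2 and Dcn beside Pdgfrb and Rgs5, so the mural class may mix cell types. Library 3M-2 was the shallowest, with a median of 5994 UMIs a nucleus against 7035 to 8140 in the others. In the 4 libraries 5680, 7053, 6939 and 6077 nuclei joined a class, and 93 barcodes occurred in more than 1 library. Gclc itself read 43.5, 34.1, 34.1 and 36.3 CPM in excitatory nuclei and 67.9, 69.7, 49.7 and 57.3 CPM in microglia (order 3M-1, 3M-2, 6M-1, 6M-2, used throughout). Without a wild type, and with counts from the 3′ end of the transcript, these levels do not check the deletion. Excitatory nuclei made up a mean of 57.5% of the assigned nuclei at 3 months and 49.2% at 6 months, oligodendrocytes 13.6 and 20.8%, and microglia 6.93 and 10.0%, with ages that did not overlap (exact permutation p = 0.333, the smallest that 2 mice against 2 can give).

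Slc1a2 was by far highest in astrocytes, and second in excitatory neurons. Its level in astrocytes was 4043, 5848, 6638 and 3679 CPM. Excitatory nuclei gave 324, 426, 436 and 411 CPM, below every astrocyte library but far above every inhibitory library, which read 60.6, 78.7, 91.9 and 99.4 CPM. OPC followed the excitatory nuclei with 226, 276, 332 and 337 CPM. The remaining classes lay close together, with means of 69.9 CPM in mural, 61.3 CPM in microglia and 57.0 CPM in oligodendrocytes. On the log2 scale the astrocyte level exceeded the excitatory one by 3.39 (standard error (SE) 0.16, edgeR quasi-likelihood adjusted p = 1.53e-18, n = 4 libraries), in a contrast where 37.9% of all 14990 genes passed. Excitatory exceeded OPC by 0.69 (SE 0.15, edgeR adjusted p = 2.75e-04, 50.2% of genes passed), and OPC exceeded inhibitory nuclei by 1.76 (SE 0.16, 42.8% of genes passed). Inhibitory, mural, microglia and oligodendrocyte levels, taken as neighbours in that order, did not differ beyond their spread. Apart from neighbours, inhibitory nuclei exceeded microglia by 0.73 (SE 0.18, edgeR adjusted p = 5.03e-04, 72.1% of genes passed). They exceeded oligodendrocytes by 0.46 (SE 0.16, edgeR adjusted p = 0.0133, 69.6% of genes passed).

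Because astrocyte nuclei were few, most Slc1a2 UMIs came from neurons: excitatory nuclei held 74.5 to 77.9% of a library's Slc1a2 UMIs and astrocytes 3.26 to 8.28%. The share of nuclei with at least 1 Slc1a2 UMI was compared after every nucleus had been thinned to 1000 UMIs. It was 25.6, 32.8, 33.9 and 32.9% in excitatory nuclei and 90.4 to 100% in astrocytes, against 4.88 to 7.11% in microglia, a type in which this carrier is not expected and which stands for free RNA in the droplets. Before thinning, the excitatory share was 78.5% in 3M-1, where the median nucleus held 11438.5 UMIs against 2246.5 in microglia. Inhibitory nuclei, with 5.95 to 9.82%, and oligodendrocytes, with 2.53 to 7.40%, overlapped the microglial range.

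Slc1a3 had a different second place: astrocytes led again, followed by microglia and mural nuclei, and neurons were lowest. In astrocytes it read 1582, 1935, 2277 and 1223 CPM. Microglia gave 308, 208, 459 and 436 CPM. OPC (209, 157, 169 and 163 CPM) and oligodendrocytes (149, 111, 131 and 119.5 CPM) came next, and the excitatory mean was 8.82 CPM (SD 0.80, n = 4) beside 12.3 CPM (SD 1.58) in inhibitory nuclei. Astrocytes exceeded microglia by 2.49 on the log2 scale (SE 0.18, 47.1% of genes passed), whereas microglia and mural nuclei (mean 313 CPM, SD 178) did not differ beyond their spread (edgeR adjusted p = 0.181). Oligodendrocytes exceeded inhibitory nuclei by 3.48 (SE 0.20, 69.6% of genes passed). After thinning, a Slc1a3 UMI was found in 76.9 to 83.0% of astrocytes, 19.1 to 34.0% of microglia and 0.65 to 0.99% of excitatory nuclei. Oligodendrocytes, with a mean of 11.4% at 3 months and 10.9% at 6 months, were nearer to microglia in depth than excitatory nuclei. Their median was 1634 to 2819 UMIs a nucleus, against 1425 to 2246.5 in microglia. In microglia 1 Slc1a3 UMI was accompanied by 0.149 to 0.291 Slc1a2 UMIs, whereas in astrocytes the same ratio was 2.56 to 3.02.

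Glul was highest in astrocytes and oligodendrocytes, lower in mural nuclei and microglia, and low in neurons. Astrocytes held 698, 669, 829.8 and 418 CPM, oligodendrocytes 391, 309.5, 459 and 457 CPM, and mural nuclei 562, 196, 403 and 145 CPM. Microglia had 243, 99.2, 196 and 149.9 CPM, whereas excitatory nuclei had only 10.1, 8.77, 11.3 and 12.6 CPM. The astrocyte and oligodendrocyte ranges overlapped, and their log2 difference was 0.48 (SE 0.17, edgeR adjusted p = 0.0210, 39.2% of genes passed), a call that was lost without 3M-1 (0.41, adjusted p = 0.0583) or without 3M-2 (0.32, adjusted p = 0.223). Oligodendrocytes (mean 404 CPM) exceeded mural nuclei (mean 326 CPM, SD 192) by 1.13 (SE 0.29, edgeR adjusted p = 0.00408, 22.6% of genes passed). Their CPM ranges overlapped, with mural 3M-1 (562 CPM) above every oligodendrocyte library. The difference was larger in the fit, which rescales each sum, than in these means. Mural nuclei and microglia did not differ beyond their spread (edgeR adjusted p = 0.314). Microglia exceeded OPC (mean 24.3 CPM) by 2.57 (61.9% of genes passed). Because oligodendrocytes were numerous, 36.3 to 52.6% of all Glul UMIs of a library lay in them and 2.84 to 11.6% in astrocytes.

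The glutamine carriers divided the classes in another way. Slc38a1 was highest in inhibitory neurons, at 115, 117, 116 and 125 CPM, and next in microglia, at 99.3, 91.4, 113 and 122 CPM. Excitatory nuclei had 63.6, 64.6, 66.2 and 72.0 CPM, below all inhibitory libraries, and oligodendrocytes had the lowest mean, 13.9 CPM. Inhibitory exceeded microglial levels by 0.44 on the log2 scale (SE 0.12, edgeR adjusted p = 9.91e-04, 72.1% of genes passed), although their CPM ranges overlapped. Slc38a2 was instead highest in mural nuclei, at 727, 1422, 1115 and 696 CPM, and in oligodendrocytes, at 659.8, 633, 451 and 516 CPM. The fit, which rescales each sum by the trimmed mean of M-values (TMM), put the difference between those 2 classes at -0.04 (edgeR adjusted p = 0.935), so the order of their CPM was not kept. Oligodendrocytes exceeded microglia (186 CPM) by 1.99 (SE 0.21, 54.5% of genes passed). Microglia, inhibitory, OPC, excitatory and astrocyte levels did not differ between neighbours in that order. Apart from neighbours, inhibitory nuclei exceeded astrocytes by 0.93 (SE 0.30, edgeR adjusted p = 0.0159, 34.6% of genes passed). The astrocyte level minus the microglial one was -0.79 (SE 0.32, edgeR adjusted p = 0.0393, 47.1% of genes passed).

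Slc17a7 was highest in excitatory neurons, with 269, 291, 223 and 272 CPM, no library of which overlapped another main class. Its means elsewhere were 81.4 CPM in OPC, 73.8 CPM in astrocytes, 55.9 CPM in microglia, 40.6 CPM in oligodendrocytes, 36.2 CPM in inhibitory neurons and 26.8 CPM in mural nuclei. Excitatory nuclei exceeded OPC by 1.97 (SE 0.14, 50.2% of genes passed) and inhibitory neurons by 3.06 (45.6% of genes passed). After thinning, 23.1, 25.5, 21.1 and 23.9% of excitatory nuclei held a Slc17a7 UMI. The inhibitory, astrocyte, oligodendrocyte, OPC and microglial shares, in classes not expected to load vesicles with VGLUT1, lay between 1.33 and 6.74%, and these shares were read as background. In astrocytes the 4 libraries ran from 9.65 to 137 CPM on 90 UMIs in all.

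Slc17a6 was low throughout. In excitatory nuclei it read 10.4, 9.84, 7.46 and 5.84 CPM, and in astrocytes 20.4, 8.41, 0 and 9.58 CPM on 12 UMIs, so their order could not be told. Slc17a8 was the rarest member, with 88, 62, 112 and 69 UMIs in the 4 libraries. No UMI of it was found in any of the 216 astrocytes, which allows a share of nuclei with a UMI of up to 5.66% in 3M-1 after thinning. Too few counts kept Slc17a8 out of the fit across classes, and its mean was 2.48 CPM in inhibitory and 0.84 CPM in excitatory nuclei. Over the other 7 members and all 21 pairs of classes, 101 of 147 contrasts passed at an edgeR adjusted p of 0.05 (99 with DESeq2). The count of members called in each pair is set here beside the percentage of all 14990 genes called in it. Excitatory nuclei differed from inhibitory nuclei in 4 (45.6%), astrocytes in 5 (37.9%), oligodendrocytes in 7 (73.4%), OPC in 6 (50.2%), microglia in 5 (74.6%) and mural nuclei in 6 (27.6%). Inhibitory nuclei differed from astrocytes in 7 (34.6%), oligodendrocytes in 5 (69.6%), OPC in 4 (42.8%), microglia in 4 (72.1%) and mural nuclei in 4 (25.8%). Astrocytes differed from oligodendrocytes in 7 (39.2%), OPC in 3 (22.3%), microglia in 7 (47.1%) and mural nuclei in 5 (14.5%). Oligodendrocytes differed from OPC in 6 (54.6%), microglia in 4 (54.5%) and mural nuclei in 1 (22.6%). OPC differed from microglia in 5 (61.9%) and mural nuclei in 4 (19.2%). Microglia differed from mural nuclei in 2 (22.5%). Many genes of all kinds thus differed between these classes, and the counts call nothing particular to the members.

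**Figure D1:**
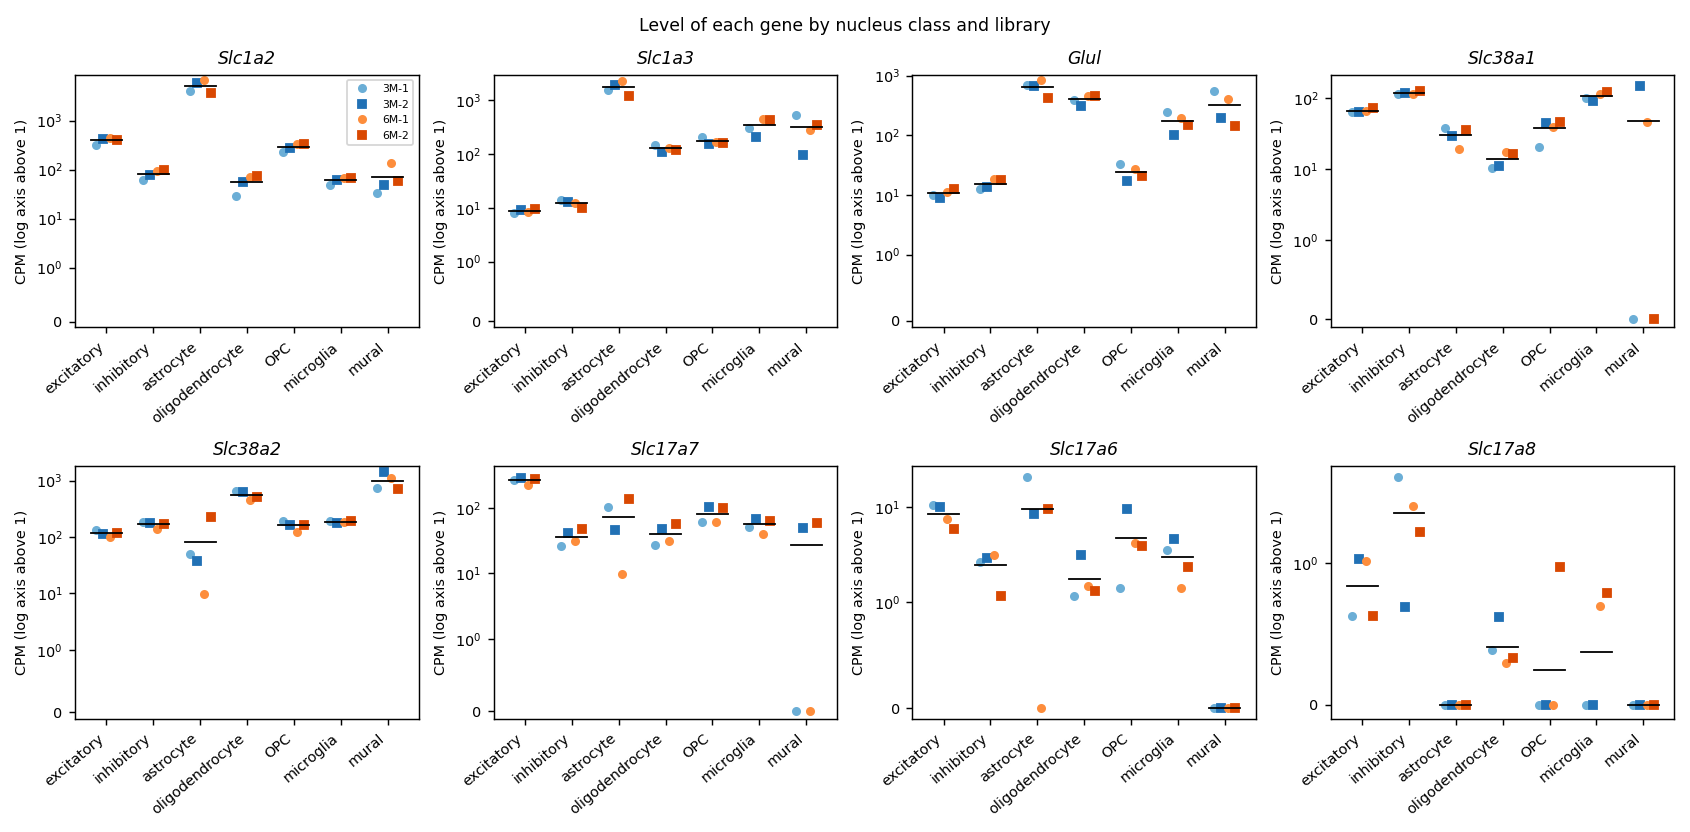
Level of each of the 8 genes in CPM (vertical axis, logarithmic above 1 and linear below) in 7 nucleus classes. Each point is 1 library (blue 3 months, orange 6 months, circles replicate 1, squares replicate 2) and the line is the mean of 4. Slc1a2 and Slc1a3 peak in astrocytes with means of 5052 and 1754.5 CPM, Slc17a7 in excitatory nuclei, Slc38a2 in mural nuclei and oligodendrocytes.

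**Figure D2:**
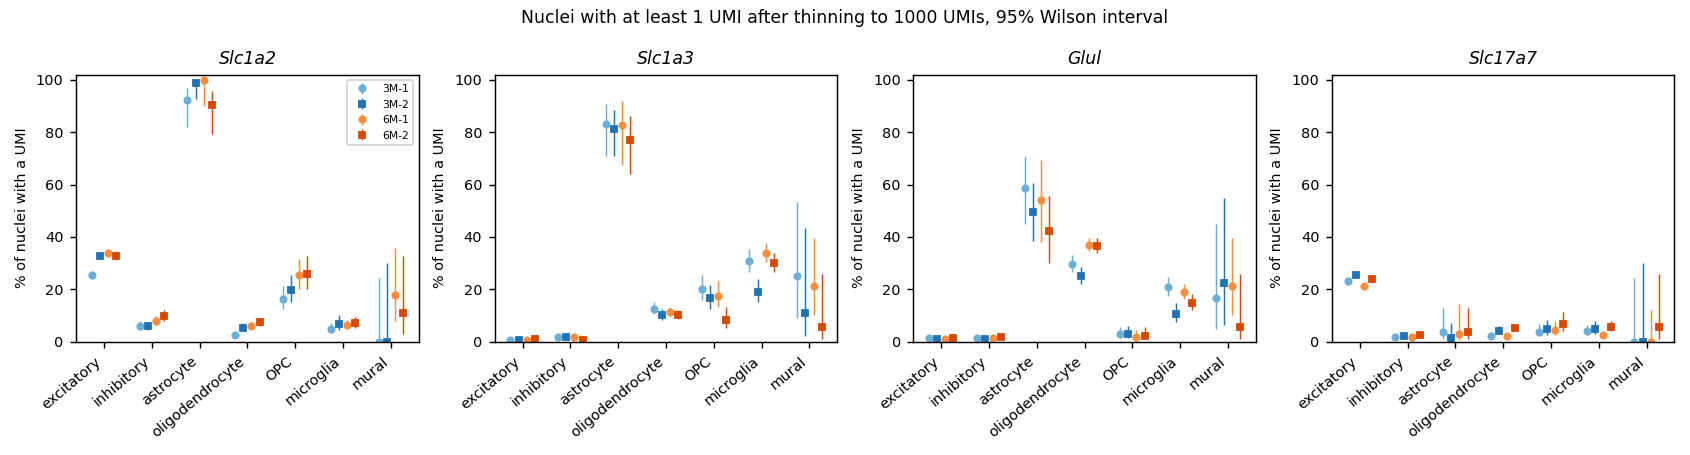
Percentage of nuclei with at least 1 UMI of Slc1a2, Slc1a3, Glul or Slc17a7 (vertical axis) in each class after every nucleus was thinned to 1000 UMIs. Points are libraries and bars 95% Wilson intervals, which cover counting error only. Slc1a3 is held by 19.1 to 34.0% of microglia but under 1% of excitatory nuclei, and mural nuclei have wide intervals because few were found.

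Among excitatory neurons Slc1a2 differed by layer. Slc1a2 was highest in Layer 6b (689, 771, 844 and 755 CPM), Layer 6 CT (548, 703, 734 and 638 CPM) and Layer 4 Rorb nuclei (489, 595, 529 and 609.6 CPM), and low in Layer 2/3 IT nuclei (179, 219, 209.8 and 170.3 CPM). The lowest subclass, named by Gm2115, Ndst4 and Dach1, read 128, 159, 119 and 72.3 CPM. Layer 4 exceeded the Tshz2 subclass by 0.80 on the log2 scale (SE 0.13, 25.9% of all genes passed), the Layer 5 subclass named by Deptor and Il1rapl2 exceeded Layer 2/3 IT by 0.83 (SE 0.13, 20.9%), and Layer 2/3 IT exceeded the Gm2115 subclass by 0.76 (SE 0.14, 22.4%). The 3 highest subclasses did not differ between neighbours beyond their spread. Among inhibitory neurons, Vip (124, 148, 237.5 and 197 CPM), Lamp5 Ndnf and Cnr1 Sncg nuclei stood above Pvalb (22.4, 35.4, 37.7 and 65.7 CPM) and Sst nuclei, with Cnr1 Sncg exceeding Pvalb by 1.80 (SE 0.18, 25.5%).

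Slc1a3 was found in few neuronal subclasses. Lamp5 Ndnf interneurons had 76.8, 57.7, 23.1 and 43.9 CPM, and every other inhibitory subclass stayed at or below 11.7 CPM in each library. Lamp5 Ndnf exceeded the next subclass, Cnr1 Sncg, by 2.82 on the log2 scale (SE 0.55, edgeR adjusted p = 3.66e-04, 14.7% of genes passed). Layer 2/3 IT nuclei had 27.0, 21.2, 16.9 and 35.4 CPM, next to the Gm2115 subclass with 12.1, 34.4, 21.2 and 5.46 CPM, and these did not differ (adjusted p = 0.149). The deep and middle layers had means of 2.89 to 5.88 CPM. The 2 excitatory subclasses with the lowest mean of Slc1a2 thus had the highest means of Slc1a3.

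Glul stood out in Layer 6 CT nuclei, at 27.7, 19.9, 20.8 and 24.6 CPM, none of which overlapped Layer 6b (10.4, 12.7, 11.1 and 11.9 CPM). The difference was 1.02 on the log2 scale (SE 0.25, edgeR adjusted p = 0.00317, 19.2% of genes passed). Slc38a1 ran from 90.8 CPM in Tshz2 to 51.2 CPM in Gm2115 nuclei among excitatory neurons, and Pvalb nuclei had the highest mean of both carriers among inhibitory neurons, 137 CPM for Slc38a1 and 193 CPM for Slc38a2. For Slc38a2 the Pvalb level exceeded that of Sst by 0.24 (SE 0.09, edgeR adjusted p = 0.0398, 29% of genes passed).

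The vesicular transporters had different subclass patterns. Slc17a7 had means from 312 CPM (SD 12.7) in Layer 6 CT to 239 CPM (SD 46.4) in Layer 2/3 IT over 6 of the 7 excitatory subclasses, and the Tshz2 subclass (196, 223, 179 and 189 CPM) lay below its neighbour in the order, Layer 2/3 IT, by 0.35 (SE 0.08, edgeR adjusted p = 9.11e-04, 29.5% of genes passed). Slc17a6 was highest in that same Tshz2 subclass, at 29.8, 22.9, 15.4 and 15.1 CPM, and in Layer 4 Rorb nuclei, at 14.9, 19.1, 10.8 and 10.5 CPM, and lowest in Layer 6 CT, where it read 1.03 to 1.85 CPM. Layer 4 exceeded the Layer 5 subclass by 0.87 (SE 0.20, edgeR adjusted p = 0.00149, 24.1%). Slc17a8 was found in the Tshz2 subclass, at 4.37, 10.7, 8.68 and 5.04 CPM, and in the Cnr1 Sncg interneurons, at 95.8, 0, 53.7 and 18.7 CPM on 37, 0, 23 and 9 UMIs from 28 to 41 nuclei per library. Cnr1 Sncg exceeded Sst by 5.05 on the log2 scale (SE 0.66, edgeR adjusted p = 1.75e-06, 16% of genes passed), and in 3M-2 it was not detected at this depth. Under the stricter gate only 4, 1, 3 and 5 Cnr1 Sncg nuclei remained, so this contrast rests on loosely assigned nuclei. Tshz2 exceeded Layer 6b in Slc17a8 by 3.60 (SE 0.74, 23.7%).

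Excitatory nuclei with a Slc17a6 UMI mostly held Slc17a7 as well: the share was 78.4, 82.4, 79.8 and 86.4%, against 88.6, 83.5, 86.0 and 90.1% of nuclei without Slc17a6. All shares here come from counts before thinning, and depth was not matched between nuclei with and without Slc17a6. In this pooled class, which mixes subclasses, the share was lower beside Slc17a6 in 4 of 4 libraries, and the 2 ranges overlapped. In the Tshz2 subclass it was 70.9, 71.4, 81.5 and 73.3% beside Slc17a6, against 73.5, 72.1, 82.9 and 78.0% without. In Layer 4 Rorb nuclei it was 84.1, 83.6, 81.2 and 88.7% against 88.0, 78.0, 80.9 and 86.9%, so the direction differed between libraries.

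Pairs of subclasses were compared after the data had been seen, and 127 of 238 contrasts of the members passed over 31 pairs, 97 of 168 among excitatory and 30 of 70 among inhibitory subclasses. These contrasts were not refitted under the stricter gate, which kept fewer nuclei of every subclass. It kept 36, 21, 35 and 42 Vip nuclei of 90, 95, 100 and 101. Of 127, 101, 231 and 299 Gm2115 nuclei it kept 35, 12, 69 and 123. Layer 6 CT nuclei were firmer, with 421, 487, 475 and 490 kept of 527, 691, 657 and 647. Members called in each pair are again given beside the percentage of all genes called in it. Layer 2/3 IT nuclei differed from Layer 4 Rorb in 5 (29.3%), Layer 5 Deptor Il1rapl2 in 4 (20.9%), Tshz2 in 7 (29.5%), Layer 6 CT in 7 (37.7%), Layer 6b in 4 (28.6%) and Gm2115 Ndst4 Dach1 in 2 (22.4%). Layer 4 Rorb nuclei differed from Layer 5 Deptor Il1rapl2 in 4 (24.1%), Tshz2 in 4 (25.9%), Layer 6 CT in 5 (35.5%), Layer 6b in 2 (31.2%) and Gm2115 Ndst4 Dach1 in 5 (37.9%). Layer 5 Deptor Il1rapl2 nuclei differed from Tshz2 in 5 (20.6%), Layer 6 CT in 5 (28.1%), Layer 6b in 3 (20.9%) and Gm2115 Ndst4 Dach1 in 4 (24.9%). Tshz2 nuclei differed from Layer 6 CT in 5 (28.1%), Layer 6b in 5 (23.7%) and Gm2115 Ndst4 Dach1 in 7 (28.2%). Layer 6 CT nuclei differed from Layer 6b in 3 (19.2%) and Gm2115 Ndst4 Dach1 in 7 (34.4%). Layer 6b nuclei differed from Gm2115 Ndst4 Dach1 in 4 (25.1%). Pvalb nuclei differed from Sst in 3 (29%), Vip in 4 (32.4%), Cnr1 Sncg in 4 (25.5%) and Lamp5 Ndnf in 5 (32.4%). Sst nuclei differed from Vip in 2 (20.1%), Cnr1 Sncg in 2 (16%) and Lamp5 Ndnf in 4 (21%). Vip nuclei differed from Cnr1 Sncg in 2 (10.6%) and Lamp5 Ndnf in 1 (18%). Cnr1 Sncg nuclei differed from Lamp5 Ndnf in 3 (14.7%).

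**Figure D3:**
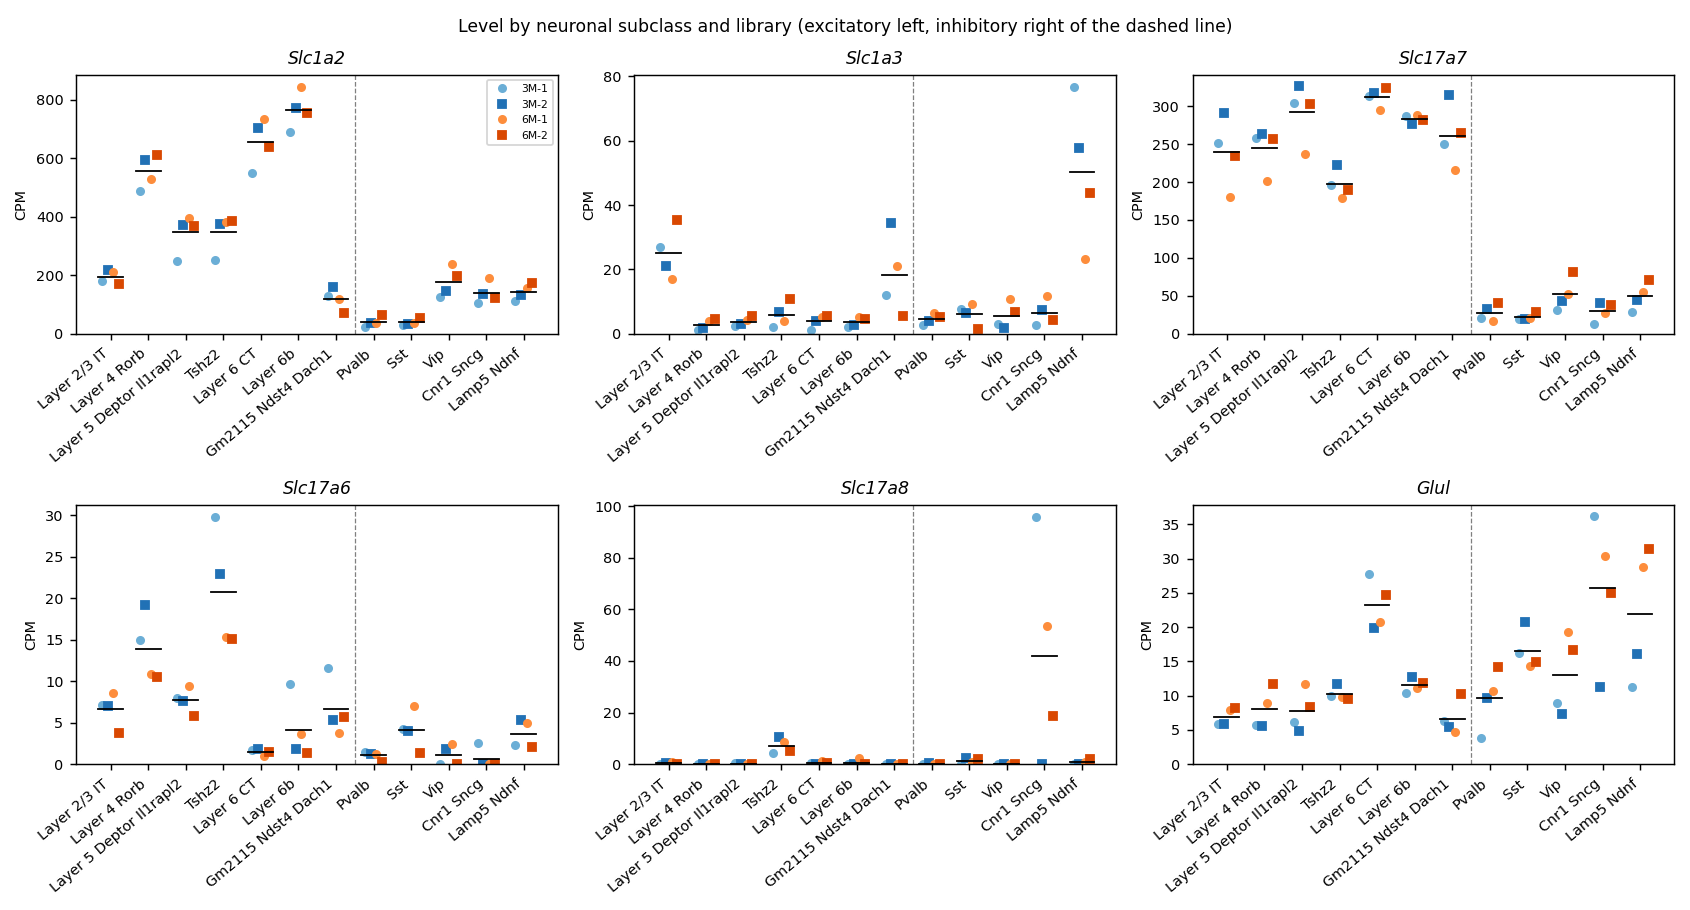
Levels in CPM (vertical axis, linear, from 0) of 6 genes in 7 excitatory and 5 inhibitory subclasses. Each point is 1 library and each line the mean of 4. Slc1a2 has a mean of 195 CPM in Layer 2/3 IT and 765 CPM in Layer 6b nuclei, whereas Slc1a3 is held mainly by Layer 2/3 IT, Gm2115 and Lamp5 Ndnf nuclei.

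Between 3 and 6 months no member passed the test in any class. Of 42 tests of members within the 7 main classes, 0 reached an adjusted p of 0.05 with edgeR, 7 had an unadjusted p under 0.05, and DESeq2 called 0. Few genes of any kind passed: 0% in excitatory, inhibitory, astrocyte and mural nuclei, 0.0398% in oligodendrocytes, 0.00907% in OPC and 0.164% in microglia. After the filter on low counts 8 members could be tested in excitatory and in inhibitory nuclei, 6 in oligodendrocytes, OPC and microglia, 5 in astrocytes and 3 in mural nuclei. Of 77 tests within the 12 neuronal subclasses 0 passed as well (15 with an unadjusted p under 0.05, DESeq2 0). All genes passed there at 0.00749% in Tshz2, 0.0342% in Layer 6 CT, 0.439% in Vip and 0% in the other 9 subclasses. Neither count at an unadjusted p under 0.05, 7 or 15, has the share of all genes beside it, so neither shows an excess.

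In astrocytes Slc1a2, Slc1a3 and Glul differed by less than the spread between mice. The log2 difference of 6 against 3 months was 0.01 for Slc1a2 (95% interval -1.02 to 1.05), -0.06 for Slc1a3 (-1.10 to 0.99) and -0.19 for Glul (-1.27 to 0.89). Each interval reaches past a 2-fold decrease, and that of Slc1a2 also past a 2-fold increase. Within batch 1 the Slc1a2 log2 ratio was 0.72 and within batch 2 it was -0.67. Neuronal transcripts in the astrocyte sums had the reverse order of libraries to Slc1a2: the excitatory genes held out of sorting (Arpp21, Camk2a, Nrgn, Chn1) summed to 1265, 917, 502 and 1396 CPM and Slc17a7 to 101.8, 46.3, 9.65 and 137 CPM. The same held-out genes summed to 2944, 2906, 2860 and 2800 CPM in excitatory nuclei and to 1066, 1390, 1172 and 1228 CPM in OPC. The part of neuronal transcripts in the astrocyte result was not tested. Slc38a2 in astrocytes was 49.4, 37.9, 9.65 and 224 CPM, on 17, 9, 1 and 70 UMIs. Its mean was 116 CPM in excitatory and 167 CPM in inhibitory nuclei, and the source of the 6M-2 value was not tested. Astrocyte nuclei numbered 53 and 76 at 3 months and 35 and 52 at 6 months.

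In excitatory nuclei Slc17a7 differed by -0.20 (95% interval -0.53 to 0.14) and Slc1a2 by 0.16 (-0.17 to 0.49), intervals that leave out a 2-fold change. Slc17a6 was lower in both 6-month libraries than in both 3-month libraries, with a log2 difference of -0.63 (SE 0.22, edgeR adjusted p = 0.648). The same direction was found in Tshz2 (-0.77, SE 0.27, edgeR adjusted p = 0.549) and Layer 4 Rorb nuclei (-0.69, SE 0.25, adjusted p = 0.788). Both are part of the excitatory sums, and the ages also did not overlap in them. Other differences were -0.88 in Gm2115, -0.50 in Layer 6 CT, -0.19 in Layer 2/3 IT and -0.04 in Layer 5 nuclei. Tshz2 nuclei made up a mean of 6.81% of assigned nuclei at 3 months and 4.35% at 6 months, and the part of this shift was not tested. Without 3M-2 the excitatory difference was -0.74 and passed (adjusted p = 0.0221). That library bore on all excitatory genes: without it 1835 of 19993 genes passed in place of 0, and without 3M-1, 6M-1 or 6M-2 the counts were 97, 8 and 7.

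Slc1a2 was higher in both 6-month libraries in inhibitory neurons, oligodendrocytes, OPC and microglia, with log2 differences of 0.46 (SE 0.15), 0.73 (SE 0.25), 0.44 (SE 0.17) and 0.32 (SE 0.23), of which none passed (edgeR adjusted p = 0.954, 0.606, 0.998 and 0.797). In oligodendrocytes its level was 29.1, 55.9, 70.4 and 72.7 CPM. The 10 astrocyte genes used for sorting summed there to 48.1, 32.3, 41.3 and 55.7 CPM and in inhibitory neurons to 194, 210.05, 222 and 197 CPM, with ages that overlapped in both and in OPC (3405, 2801, 3100.5 and 2935 CPM), but not in microglia. Gfap, an astrocyte filament gene held out of the sorting and picked after its values were seen, was higher in both 6-month libraries in each of these classes. It read 3.10, 7.46, 16.8 and 16.7 CPM in oligodendrocytes and 2.18, 0.96, 5.004 and 2.44 CPM in inhibitory neurons. In OPC it read only 1.41, 2.83, 8.31 and 3.89 CPM, in sums of 1416838, 1059124, 1203664 and 1027585 UMIs, so on few Gfap UMIs. Gfap was likewise higher at 6 months within astrocytes themselves, at 145, 118, 328 and 233 CPM. In excitatory nuclei it read 1.01, 1.02, 2.89 and 2.41 CPM. Because Gfap differed within astrocytes too, its level in the other classes was not used as a measure of astrocyte RNA. The ages overlapped in Aqp4, a sorting gene, in OPC (18.4, 34.0, 20.8 and 23.4 CPM) and in oligodendrocytes (1.16, 0, 0.88 and 2.95 CPM). The part of astrocyte RNA in the Slc1a2 differences was not tested. Without 3M-2, which leaves 1 mouse at 3 months, the first 3 Slc1a2 differences became 0.62, 1.15 and 0.58. In Vip interneurons Slc1a2 was 124 and 148 CPM at 3 months and 237.5 and 197 CPM at 6 months (0.69, SE 0.19, edgeR adjusted p = 0.195), and in Pvalb interneurons the difference was 0.85 (SE 0.29, adjusted p = 0.948). Slc17a7, the excitatory transporter, lay higher at 6 months in the same Vip nuclei, at 31.1 and 43.7 CPM against 53.1 and 80.8 CPM (0.87, SE 0.31, edgeR adjusted p = 0.403), and its part in the Slc1a2 value was not tested. Without 3M-2 the Slc1a2 differences in Vip and Pvalb became 0.78 and 1.19.

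Oligodendrocytes showed opposite directions in Slc38a2 and Glul. Slc38a2 was 659.8 and 633 CPM at 3 months and 451 and 516 CPM at 6 months. The difference was -0.49 (SE 0.16, edgeR adjusted p = 0.571), and -0.60 without 3M-2. Glul was 391 and 309.5 CPM at 3 months and 459 and 457 CPM at 6 months, a difference of 0.31 (SE 0.18, adjusted p = 0.804). After thinning, Glul UMIs were found in 29.7 and 25.2% of oligodendrocytes at 3 months and 36.9 and 36.7% at 6 months, and Slc38a2 UMIs in 46.6 and 46.1% against 35.4 and 39.2%. Each of these pairs had an exact two-sided permutation p of 0.333, the smallest the design allows. Over 51 pairs of member and class with a UMI the ages did not overlap in 22, against 29.3% of such pairs over all genes.

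**Figure D4:**
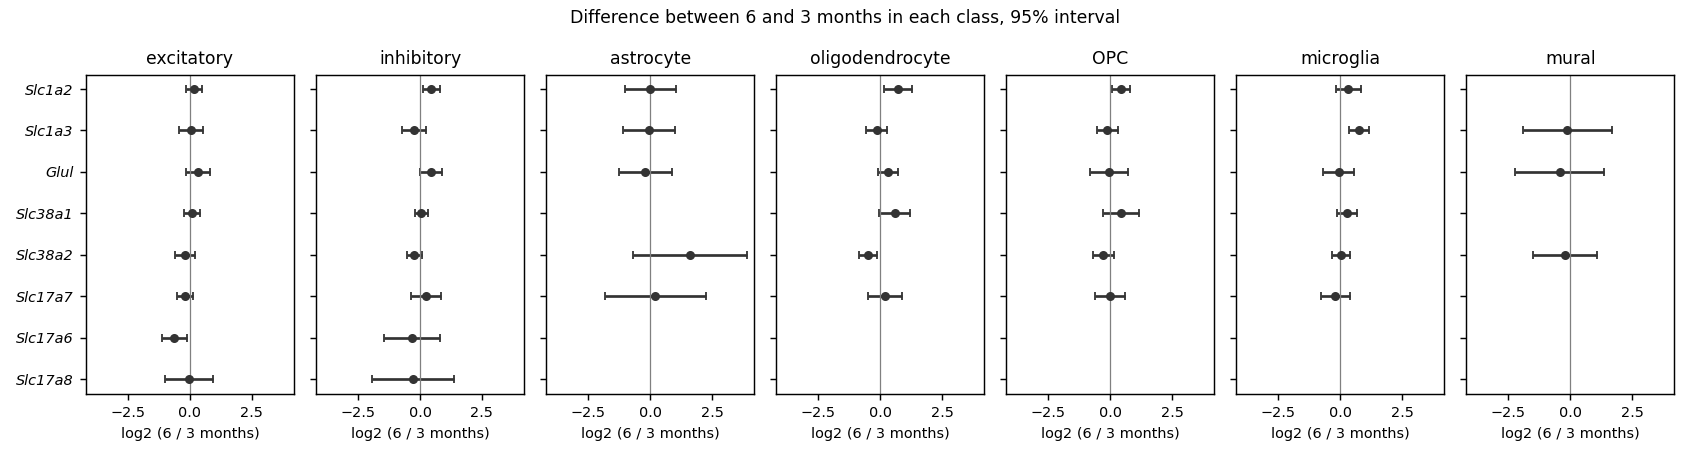
Log2 difference of 6 against 3 months (horizontal axis) of each member tested in 7 classes, from edgeR. Points are estimates and bars 95% intervals. Most intervals cover 0, Slc1a3 in microglia lies at 0.75 (0.34 to 1.16), and astrocyte and mural intervals are wide.

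Slc1a3 in microglia gave the smallest p-value of any member between ages in the main classes. Its level was 308 and 208 CPM at 3 months and 459 and 436 CPM at 6 months, so that both older libraries lay above both younger ones. The log2 difference was 0.75 (SE 0.19, edgeR adjusted p = 0.196, DESeq2 adjusted p = 0.379). With the labelled batch as a block it was 0.79 and passed (edgeR adjusted p = 0.0140), and within batches 1 and 2 the log2 ratio was 0.57 and 1.07. What a batch was is not stated, and same-numbered microglial sums did not deviate together (correlation -0.012). The difference was 1.11 without 3M-1, 0.49 without 3M-2, 0.72 without 6M-1 and 0.81 without 6M-2. Each of these fits leaves 1 mouse at 1 age, so the spread at that age is not measured.

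The age difference of Slc1a3 was then compared between classes, in 1 fit per pair with the mouse as a block. Of 146 such comparisons over all members 4 passed, all of them Slc1a3 with microglia, in pairs where 0.328 to 1.43% of all genes passed. The excitatory age difference minus the microglial one was -0.69 (SE 0.19, edgeR adjusted p = 0.0237, 1.43% of genes passed), the inhibitory one -0.98 (SE 0.21, adjusted p = 0.0306, 0.376%), the oligodendrocyte one -0.93 (SE 0.17, adjusted p = 0.00707, 0.387%) and the OPC one -0.86 (SE 0.21, adjusted p = 0.0448, 0.328%). DESeq2 called only the last (adjusted p = 0.0311). In the pairs with no member called, the percentage of all genes called was 0.0155% for excitatory and inhibitory, 0.00549% for excitatory and astrocyte, 0.653% for excitatory and oligodendrocyte, 0.365% for excitatory and OPC, 0.203% for inhibitory and oligodendrocyte, 0.0547% for oligodendrocyte and OPC, 0.00901% for oligodendrocyte and mural, 0.0097% for OPC and mural and 0.0103% for microglia and mural, and 0% in the other 8. Without 3M-2 the excitatory call (adjusted p = 0.815) and the inhibitory call (0.0719) were lost, without 6M-1 the excitatory (0.797), inhibitory (0.0943) and OPC (0.376), and without 6M-2 the inhibitory (0.152), oligodendrocyte (0.173) and OPC (0.187).

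In neurons Slc1a3 had other values. In Lamp5 Ndnf interneurons, its highest neuronal subclass, it was 76.8 and 57.7 CPM at 3 months and 23.1 and 43.9 CPM at 6 months, a log2 difference of -1.04 (SE 0.32, edgeR adjusted p = 0.865). In Layer 4 Rorb nuclei, where it was near the limit of detection on 7 to 30 UMIs a library, the difference was 1.42 (SE 0.44, adjusted p = 0.728). Glul in microglia was 243 and 99.2 CPM at 3 months and 196 and 149.9 CPM at 6 months, so the older libraries lay between the younger ones, and the difference was -0.06 (SE 0.30). Without 3M-1 it became 0.81 and without 3M-2 it became -0.53, so its direction changed with the 3-month library that was kept.

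Astrocyte markers also moved in microglia. The 10 astrocyte genes used for sorting summed to 36.6, 34.1, 70.0 and 78.5 CPM in microglia, and Aqp4 read 5.23, 7.75, 18.9 and 14.1 CPM. Microglia with a UMI of any of the 14 astrocyte genes were then left out, a step added after the data had been seen. This kept 415, 350, 597 and 473 of the 480, 382, 723 and 587 nuclei. Slc1a3 was 322, 209, 474 and 452 CPM in them, with the libraries in the same order. These genes give few UMIs in a microglial nucleus, so nuclei with stray astrocyte RNA can remain, and its part was not tested. Slc1a2 in these nuclei was 47.2, 58.3, 72.3 and 60.6 CPM. The share of microglia with a Slc1a3 UMI after thinning was 30.8, 19.1, 34.0 and 30.2%, and here the ages overlapped, because 3M-1 exceeded 6M-2. Before thinning it was 43.8, 26.4, 49.7 and 49.7%, at median depths of 2246.5, 1425, 1691 and 2012 UMIs. The thinned share left out 29, 89, 32 and 10 microglia with fewer than 1000 UMIs.

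Other genes of the same pathway were followed as 7 lists of 59 genes: further Slc1 carriers, further Slc38 carriers, glutamate and glutamine metabolism, GABA synthesis and transport, the vesicular proton pump, synaptic vesicle proteins and astrocyte ion balance. In every main class 0 of them passed with edgeR and with DESeq2, out of 56 measured in excitatory, 51 in inhibitory, 37 in astrocyte, 48 in oligodendrocyte, 49 in OPC, 42 in microglia and 4 in mural nuclei. The number with an unadjusted p under 0.05 was 3, 2, 0, 3, 5, 2 and 1 in that order, again without the share of all genes beside it. In the 12 neuronal subclasses 1 of 548 tests of these genes passed (23 had an unadjusted p under 0.05, likewise without that share). This was Sv2b, a synaptic vesicle protein named here after its values were seen, which was higher at 6 months in Vip nuclei by 1.80 on the log2 scale (SE 0.35, edgeR adjusted p = 0.0378), where 0.439% of all genes passed and Slc17a7 also lay higher. The count of all genes called in Vip nuclei was 39, and 2 without the deepest 5% of nuclei.

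Genes whose level followed a member most closely over the 28 sums of 7 classes and 4 libraries were ranked by Pearson's r of log2 CPM over 11907 genes, as a description, and these points share libraries and mean differences between classes. For Slc1a2 they were Gm13872 (0.960), the gene that overlaps it on the other strand, and Cpe (0.952), and for Glul Tsc22d3 (0.944) and Selenop (0.913). Slc17a7 was most like Camk2b (0.903), Slc38a1 most like Slc4a7 (0.942), Slc1a3 most like Slc10a7 (0.936), Slc38a2 most like Appbp2os (0.898), Slc17a6 most like Gm26652 (0.910) and Slc17a8 most like Nxph2 (0.826).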

How the data were processed

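Gene-by-nucleus UMI counts were deposited by the authors as unnormalized matrices written with Cell Ranger 7.0.0 per the file headers, and the submitters' processing notes name mm10 and Seurat. Whether introns or strand were counted is not given in the sources used here. Nuclei with over 7000 genes or over 1% mitochondrial UMIs were removed, following the study, which left 30515 of 30784. Nuclei were classed by a Poisson likelihood over marker genes (margin 5, at least 2 markers). The scoring rule was set after the data were seen, and so was the need for 3 markers in a small striatal-like class that lies outside the tests. Of 16010 nuclei scored best as excitatory, 1283 fell below the margin. Of 2286 best as microglia, 29 did, and of 258 best as astrocytes, 11 did. Nuclei with markers of 2 classes (201, 235, 353 and 260 per library) were left out as likely doublets, and no doublet caller was run. Granule-like, striatal-like and endothelial-like nuclei were too few for tests. UMIs were summed per library and class (at least 10 nuclei) and tested with edgeR 4.0.16 (TMM, filterByExpr, glmQLFTest) in R 4.3.3 over all genes, with Benjamini-Hochberg adjustment at 0.05, and DESeq2 1.42.0 as an alternative. Scripts were tested on simulated data, with 1 common dispersion per class. There the age test recovered 30.9% of 2-fold changes in excitatory, 40.8% in oligodendrocyte and 2.47% in astrocyte sums. Of 4-fold changes it recovered 94.9, 98.9 and 30.7%. Each library is 1 mouse, of 59262228 to 65894316 UMIs, and Wilson intervals cover counting error only, whereas those of log2 differences include the spread between mice. Replicate numbers are the labelled batches, and what a batch was is not stated. Used as a block they pair mice of different ages, but same-numbered samples did not deviate together. Their deviations correlated by -0.133 in excitatory, -0.034 in inhibitory, -0.448 in astrocyte, -0.049 in oligodendrocyte, -0.054 in OPC, -0.012 in microglia and 0.080 in mural sums. The blocked value is given where it changed a call. Named genes were the 8 members, pathway genes past the threshold in a main class (none), Gclc, and the 3 genes most like each member, of which the first 1 or 2 are printed. Some genes of these lists, and the held-out astrocyte check that contains one, are not reported here. Members and lists were chosen with earlier results of these data known. Alternatives were size factors, no low-count filter, no nucleus filter, a stricter class margin of 15, removal of the deepest 5% of nuclei, the replicate block and each library left out. Gene positions are from GENCODE (GRCm38).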

Additional observations from a re-analysis of the deposited data

Results flagged for a closer look

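Slc1a3, which encodes the glutamate carrier GLAST, was flagged because its 6 against 3 month difference in microglia departed from that in 4 other classes by the test of the difference itself (edgeR, mouse as a block). On the log2 scale the age difference minus that of microglia was -0.69 in excitatory nuclei, -0.98 in inhibitory nuclei, -0.93 in oligodendrocytes and -0.86 in OPC. Against astrocytes the same comparison gave -0.91 (SE 0.46, edgeR adjusted p = 1.00), and 0 of the 4 calls held under every left-out library. Astrocyte marker sums in microglia were also higher at 6 months (70.0 and 78.5 CPM against 36.6 and 34.1), and their part in the result was not tested in these fits.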

How the results depend on the processing

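The count of members called between ages in the main classes, 0 of 42, became 1 with no low-count filter and 1 with the replicate block, both Slc1a3 in microglia, and 0 to 8 with 1 library left out. In the neuronal subclasses it was 0 of 77, and 0 to 6 with 1 library left out. The highest count arose without 3M-2 in both cases. Without 6M-1 the only call was Slc38a2 in astrocytes (2.38). There 6M-2 is the lone 6-month library, is assumed to vary like the others, and holds 70 of the astrocyte Slc38a2 UMIs. Of 146 comparisons of the age difference between classes 4 passed, against 1 with DESeq2 and 1 to 4 with 1 library left out. The number of thinned shares without overlap between ages was 22 of 51, beside 29.3% of such pairs over all genes. With 1 library left out it lay between 31 and 42. There 2 values face 1, so ages separate more often by design, and no share over all genes was set beside these counts. Contrasts between classes that passed numbered 101, from 91 to 109 under the alternatives with the same classes. With no replicate block there 98 passed. The stricter margin left 105 contrasts, of which 80 passed. Astrocyte differences near 0 changed sign: Slc1a2 was -0.079 with no low-count filter, -0.0064 with the replicate block, -0.055 without the deepest 5% of nuclei, and between -0.38 and 0.36 with 1 library left out. Slc1a3 there was 0.028 with no nucleus filter and between -0.47 and 0.30 with 1 library left out, and Glul between -0.66 and 0.20. The cause was not tested. The block changed no other call of a member between ages. Since deviations of same-numbered excitatory samples correlated below -0.1, the crossed pairing was added after the data were seen. It called 171 genes in excitatory, 4 in inhibitory, 0 in astrocyte, 130 in oligodendrocyte, 13 in OPC, 18 in microglia and 0 in mural nuclei, and 0 members. Low counts limit Slc17a8 and Slc17a6. Astrocyte and mural values rest on 35 to 76 and 13 to 33 nuclei a library.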
